A study of Homo sapiens with 8 samples.

Results

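The nuclear pore and nuclear transport genes are the protein-coding rows of the count tables whose symbol names a numbered nucleoporin (NUP), an importin alpha or importin beta 1 (KPNA, KPNB), another importin (IPO), a transportin (TNPO) or an exportin (XPO). The pattern gave 46 genes of 58302 gene rows, and all 46 were among the 18240 genes tested. They hold 23 NUP symbols and 23 transport receptors, of which 7 are importin alpha genes and 16 belong to the importin beta family. A further 28 rows with a matching symbol are not protein-coding and were left out.

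The libraries are RNA-seq of Caco-2/15, a line derived from a human colon cancer whose cultures take on features of absorptive enterocytes after they reach confluence. All libraries come from cells with a heterozygous Flag epitope tag, put in with CRISPR-Cas9, on either of the genes that encode histone H2A.Z. Z1flag cells carry it on H2AFZ, for H2A.Z.1, and Z2flag cells have it on H2AFV, for H2A.Z.2. Cells of each line were taken before confluence (subconfluent) or 7 days past it (postconfluent). Each of the 4 groups has 2 libraries, so each state has 4. Untagged cells were not analysed here, and whether a line is a single clone was not given in the sources used here. Per its design text, the study set out to separate the roles of the H2A.Z isoforms in gene expression as these cells differentiate. The comparisons below set postconfluent against subconfluent cells within each line and over both lines, and then set the lines against each other.

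The nuclear pore is the channel through which macromolecules cross the nuclear envelope. A scaffold of outer (Y complex) and inner rings holds disordered nucleoporins rich in phenylalanine-glycine repeats that line the central channel, with filaments on the cytoplasmic face and a basket on the nuclear face. Receptors of the importin beta family carry cargo through it and take up or release cargo according to the small GTPase Ran. Importin alpha proteins are adaptors that bind the classical nuclear localisation signal and hand the cargo to importin beta 1.

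Gene counts ranged from 17063826 to 40881682 per library, and 20.6% to 32.0% of reads overlapped no annotated feature, most in replicate 1 of both Z1flag states. Epithelial identity was present in every library: EPCAM stood between 439 and 831 CPM (the TMM-scaled share of gene counts). Of the 10 epithelial and enterocyte markers, 7 were higher and 2 (KRT8 and KRT18) lower after confluence. One of the 7, KRT20, had 2 counts over the subconfluent and 47 over the postconfluent libraries. It met the filter on low counts through postconfluent libraries alone, so only a higher level could be called for it. The leukocyte markers PTPRC and CD68, the endothelial marker CDH5 and the fibroblast marker DCN were at or near 0 CPM in all libraries. The summed level of the 7 leukocyte and endothelial markers was 5.54 to 12.4 CPM in subconfluent and 10.5 to 26.9 CPM in postconfluent libraries, most of it PECAM1. The 6 fibroblast markers summed to 183 to 233 CPM and 72.2 to 86.9 CPM. In subconfluent and then postconfluent libraries PDGFRA averaged 84.7 and 8.75 CPM, LUM 75.7 and 19.5 CPM, and COL1A1 11.6 and 34.1 CPM. PDGFRA, LUM and COL3A1 were lower over both lines, COL1A1 was higher, and PDGFRB did not pass. Of the leukocyte and endothelial markers tested, ITGAM, PECAM1 and VWF were higher over both lines and CD3E did not pass. VWF and CD3E met the filter on low counts through postconfluent libraries alone, so only a higher level could be called for them. The part of other cells in the results below was not tested.

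Most of the pore and transport genes were lower after confluence. Over both lines, 35 of the 46 passed the test with a lower level and 2 with a higher level (edgeR quasi-likelihood test, adjusted p under 0.05 over all genes tested), while 9 did not pass. The same test called 27.5% of all genes lower and 27.8% higher. Of the 2 higher members, KPNA7 met the filter on low counts through postconfluent libraries alone. Of the 35 lower ones, IPO4 met it through subconfluent libraries alone. The members' median log2 fold change was -0.76, against -0.01 over all genes tested. Passing members at least 2-fold lower numbered 16, IPO4 among them, and the matching share of all genes was not counted. The summed level of the 46 genes was 9207 ± 512 CPM in subconfluent and 6227 ± 1011 CPM in postconfluent libraries (SD, n = 4). CPM is a share of each library's gene counts, so fewer cells that express these genes and less of their RNA per cell cannot be told apart.

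**Figure D1:**
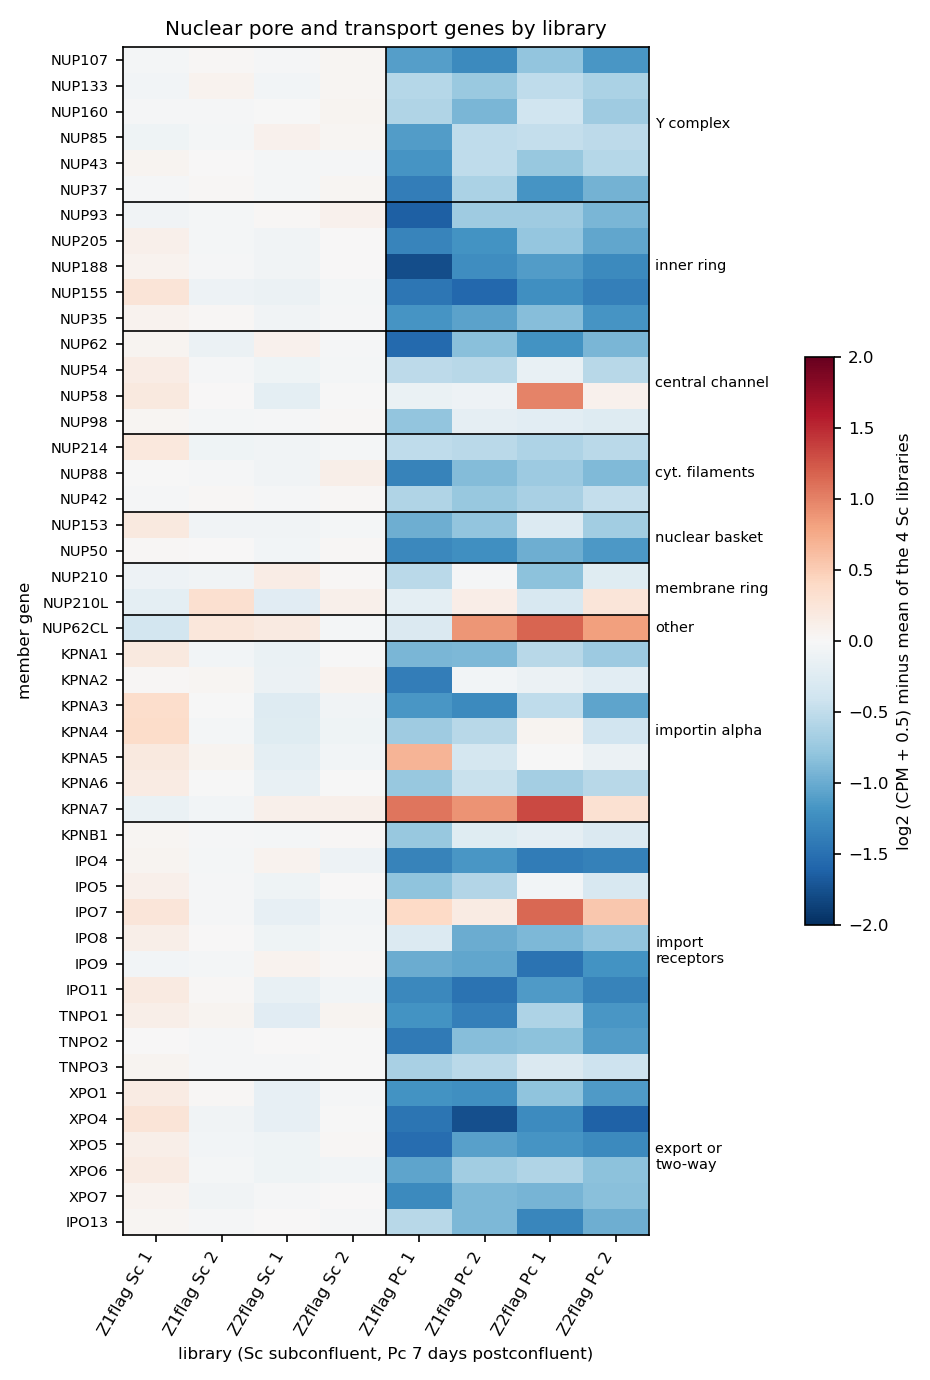
Level of each of the 46 members (rows, grouped by role) in each library (columns), as log2 of CPM plus 0.5 minus the mean of the 4 subconfluent libraries. Blue marks a lower and red a higher level. Postconfluent columns are blue for most members, while IPO7 and KPNA7 are red in all 4.

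The scaffold nucleoporins with a NUP symbol fell together. All 6 such Y complex genes were lower over both lines (median log2 fold change -0.69), and so were all 5 inner ring genes (median -1.08). NUP155, an inner ring nucleoporin (ENSG00000113569, chromosome 5, 37288137 to 37371181, minus strand, GRCh38), stood at 284.7 and 222.9 CPM in subconfluent and 87.1 and 79.6 CPM in postconfluent Z1flag libraries. In Z2flag libraries it stood at 219.1 and 231.6 CPM, then at 101.5 and 92.5 CPM. Every postconfluent library was below every subconfluent one, and the change of -1.41 on the log2 scale (SE 0.14, edgeR adjusted p = 3.37e-05) was the largest among the NUP genes that passed. NUP188, also of the inner ring, went from 157.6 ± 6.34 (SD, n = 4, here and below) to 62.2 ± 11.5 CPM (log2 fold change -1.35, SE 0.15, adjusted p = 6.8e-05). NUP205, the most abundant inner ring gene per length, fell from 348.5 ± 17.8 to 166.0 ± 27.7 CPM (log2 fold change -1.08, SE 0.13, adjusted p = 0.000116).

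NUP107 (ENSG00000111581, chromosome 12, 68686734 to 68745809, plus strand) is a stalk component of the Y complex. Subconfluent libraries held 146.5 and 154.2 CPM of it in Z1flag and 148.6 and 156.2 CPM in Z2flag cells. Postconfluent libraries held 69.9 and 62.4 CPM, then 86.9 and 67.4 CPM. The states did not overlap (log2 fold change -1.08, SE 0.14, adjusted p = 0.000129). NUP37 fell from 51.0 ± 1.27 to 25.1 ± 5.76 CPM (log2 fold change -1.03, SE 0.18, adjusted p = 0.000802) and NUP133 from 185.1 ± 8.44 to 120.8 ± 8.07 CPM (log2 fold change -0.62, SE 0.13, adjusted p = 0.00238). The other Y complex genes, NUP160, NUP85 and NUP43, lay between -0.65 and -0.74.

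The peripheral and channel nucleoporins were less uniform. All 3 genes of the cytoplasmic filaments passed with a lower level (NUP88 at -0.95, NUP42 at -0.63 and NUP214 at -0.56), and so did both basket genes. NUP50, a basket protein that helps to release import cargo, stood at 241.7, 238.2, 226.9 and 240.6 CPM in the subconfluent libraries and at 96.7, 100.9, 120.2 and 106.4 CPM in the postconfluent ones (log2 fold change -1.16, SE 0.13, adjusted p = 5.68e-05). The subconfluent libraries were close to each other and far from all 4 postconfluent libraries. NUP153, which anchors the basket, changed by -0.68 (SE 0.15, adjusted p = 0.00301). NUP62, a repeat protein of the central channel, fell from 81.9 ± 5.05 to 38.0 ± 8.35 CPM (log2 fold change -1.11, SE 0.18, adjusted p = 0.000508), although 10.4% of its exonic length overlaps ATF5 on the other strand. Of its partners, NUP54 fell by less (log2 fold change -0.44, SE 0.14, adjusted p = 0.0196, and up to 0.135 under other settings), and NUP58 did not pass.

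NUP58 (ENSG00000139496, chromosome 13, 25301524 to 25349800, plus strand) forms a channel complex with NUP62 and NUP54. In Z1flag cells it stood at 177.2 and 155.7 CPM before and at 140.8 and 144.8 CPM after confluence. In Z2flag cells it stood at 135.6 and 154.8 CPM before and at 310.2 and 164.6 CPM after. Postconfluent Z2flag replicate 1 stood far above the other 7 libraries. The mean change was 0.24 (SE 0.19, adjusted p = 0.299). Without postconfluent Z2flag replicate 2, so that replicate 1 alone stood for its group, it was 0.49 and passed (adjusted p = 0.0268). NUP98, a channel and filament nucleoporin, had a log2 fold change of -0.35 (adjusted p = 0.0855). The membrane-ring gene NUP210 had one of -0.38 (adjusted p = 0.0834). NUP210L and NUP62CL, with means of 0.342 and 1.09 CPM in subconfluent cells, also did not pass.

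**Figure D2:**
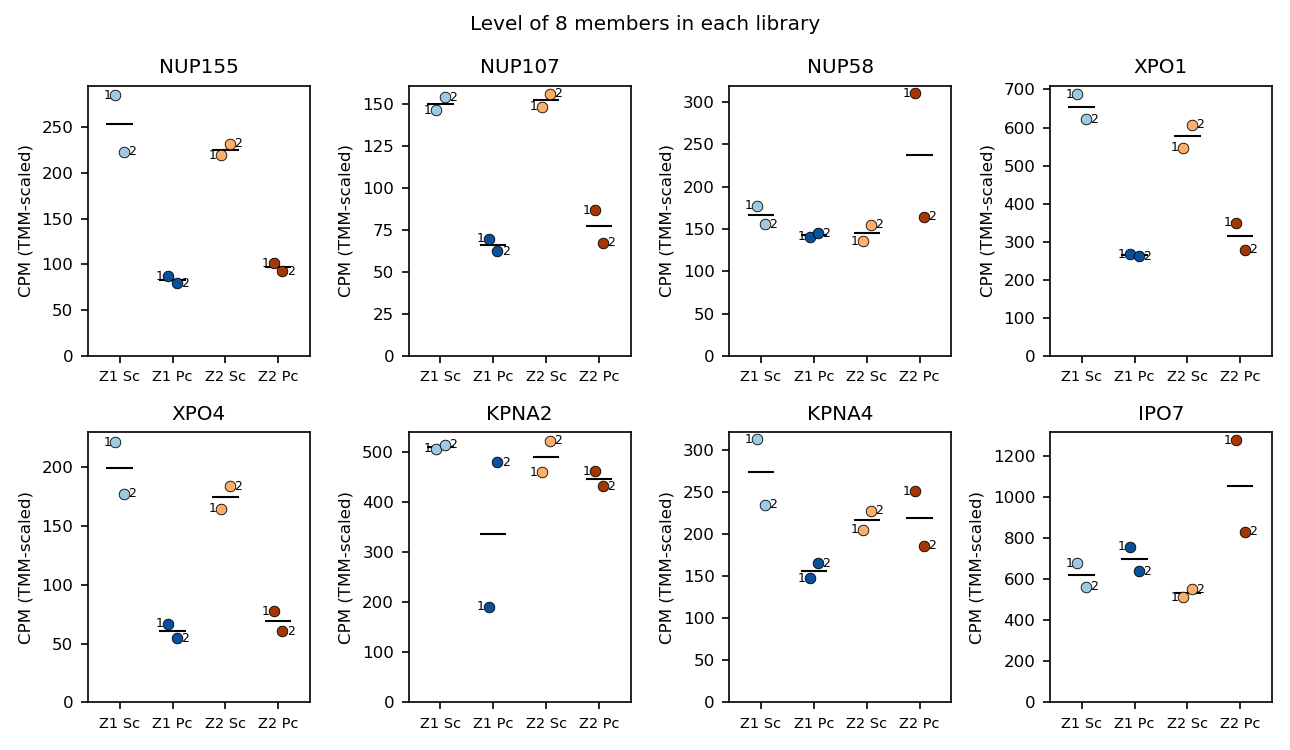
TMM-scaled CPM of 8 members in each library, by line and state, with replicate numbers beside the points and a line at each group mean. NUP155, NUP107, XPO1 and XPO4 do not overlap between states, whereas KPNA2 has 1 low library (postconfluent Z1flag replicate 1) and NUP58 has 1 high library (postconfluent Z2flag replicate 1).

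The exportins and IPO13 were all lower. These 6 genes form the exporter and bidirectional group and passed with a lower level over both lines and in each line (median log2 fold change -1.04 over both lines). XPO1 (ENSG00000082898, chromosome 2, 61477849 to 61538626, minus strand), the export receptor for proteins with a leucine-rich export signal, stood at 687.8 and 622.3 CPM in subconfluent and 266.7 and 261.5 CPM in postconfluent Z1flag cells. In Z2flag cells it stood at 547.1 and 607.0 CPM, then at 350.5 and 278.6 CPM. The states did not overlap (log2 fold change -1.09, SE 0.14, adjusted p = 0.000136). XPO4 (ENSG00000132953, chromosome 13, 20777329 to 20903048, minus strand), which exports the translation factor eIF5A, stood at 220.9 and 177.1 CPM, then at 66.9 and 54.3 CPM, in Z1flag cells. Its Z2flag values were 164.6 and 183.6 CPM before and 77.2 and 60.3 CPM after confluence. It had the largest fall of the group (log2 fold change -1.53, SE 0.15, adjusted p = 3.79e-05). XPO5, the exporter of microRNA precursors, fell from 140.3 ± 9.27 to 58.3 ± 7.42 CPM (log2 fold change -1.27, SE 0.14, adjusted p = 7.25e-05). XPO7, XPO6 and IPO13, which works in both directions, changed by -0.99, -0.79 and -0.96.

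Of the 10 import receptors, 8 were lower and 1, IPO7, was higher. IPO11 fell from 91.8 ± 9.06 to 36.7 ± 3.77 CPM (log2 fold change -1.32, SE 0.13, adjusted p = 3.6e-05), with 5.68% of its exonic length shared with KIF2A and 17.0% with LRRC70 on the same strand. IPO9, an importer of core histones, fell from 200.9 ± 7.695 to 89.3 ± 12.8 CPM (log2 fold change -1.18, SE 0.13, adjusted p = 6.07e-05). TNPO1, transportin 1, which imports RNA-binding proteins such as hnRNP A1, stood at 659.9, 636.8, 524.5 and 633.1 CPM in subconfluent and at 266.5, 235.7, 396.2 and 273.8 CPM in postconfluent libraries (log2 fold change -1.08, SE 0.16, adjusted p = 0.00032). Postconfluent Z2flag replicate 1 was the highest of its state and still below all subconfluent libraries. TNPO2, IPO8, TNPO3 and IPO5 changed by -1.04, -0.72, -0.47 and -0.44. For IPO5 and TNPO3 some settings gave adjusted p values up to 0.123 and 0.0606. IPO4 had the largest fall of all members (log2 fold change -2.26), on only 194 counts over the subconfluent and 26 over the postconfluent libraries. It met the filter on low counts through subconfluent libraries alone, so with that filter only a lower level could be called for it. As 69.3% of its exonic length is also shared with another gene on the same strand, its value is uncertain.

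KPNB1, importin beta 1 (ENSG00000108424, chromosome 17, 47649476 to 47685505, plus strand), was the import receptor that did not pass. It stood at 1122, 1081, 1064 and 1108 CPM in subconfluent libraries. Postconfluent Z1flag libraries held 647.0 and 920.5 CPM and Z2flag libraries 965.3 and 897.2 CPM. All 4 postconfluent values were below all 4 subconfluent values, with the lowest in Z1flag replicate 1, and the log2 fold change was -0.36 (SE 0.15, adjusted p = 0.0651). It passed with limma voom, with no filter on low counts and without postconfluent Z1flag replicate 2 (adjusted p up to 0.0476).

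IPO7 (ENSG00000205339, chromosome 11, 9384622 to 9448126, plus strand) imports ribosomal proteins and, with importin beta 1, linker histone H1. Its levels in Z1flag cells were 676.2 and 562.4 CPM before and 757.3 and 638.5 CPM after confluence. In Z2flag cells they were 511.5 and 549.5 CPM before and 1274 and 828.5 CPM after. The states overlapped over all libraries through the Z1flag line, and within Z2flag cells they did not. The change was 0.58 over both lines (SE 0.17, adjusted p = 0.0144), 0.99 in Z2flag (SE 0.24, adjusted p = 0.0102) and 0.17 in Z1flag cells (SE 0.24, adjusted p = 0.59). The difference between these changes did not pass (0.81, SE 0.34, edgeR adjusted p = 0.799). The call in Z2flag cells was lost without postconfluent replicate 1 (log2 fold change 0.73, adjusted p = 0.0664) or either subconfluent replicate (adjusted p up to 0.0902). The call over both lines was lost when replicate 2 of subconfluent Z1flag cells or replicate 1 of subconfluent Z2flag cells was left out (adjusted p up to 0.0716).

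The importin alpha genes split in their change. KPNA3 (log2 fold change -0.99, SE 0.16, adjusted p = 0.000617), KPNA1 (-0.78, SE 0.13, adjusted p = 0.000662) and KPNA6 (-0.61, SE 0.13, adjusted p = 0.00328) were lower, although 16.3% of the exonic length of KPNA1 overlaps a noncoding gene on the other strand. KPNA7 was higher, from 14 counts over the 4 subconfluent to 54 over the 4 postconfluent libraries (log2 fold change 2.74, SE 0.54, adjusted p = 0.00187). Its levels were 0.101 ± 0.0485 and 0.65 ± 0.315 CPM, the lowest of the family in both states. No subconfluent library was above 0.143 CPM, so KPNA7 met the filter on low counts through postconfluent libraries alone. With that filter only a higher level could be called for it. KPNA4 and KPNA5 did not pass (adjusted p = 0.0537 and 0.711).

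KPNA2 (ENSG00000182481, chromosome 17, 68035519 to 68046842, plus strand), the most abundant importin alpha here, also did not pass over both lines. Subconfluent libraries held 506.8 and 514.9 CPM of it in Z1flag and 459.9 and 523.1 CPM in Z2flag cells. Postconfluent Z1flag libraries held 191.3 and 480.4 CPM, and Z2flag libraries 462.2 and 432.5 CPM. Postconfluent Z1flag replicate 1 was far below the other 7 libraries, which overlapped between states. The log2 fold change was -0.37 (SE 0.24, adjusted p = 0.215). It was -0.74 and passed when postconfluent Z1flag replicate 2 was left out, so that the low library alone stood for its group (adjusted p = 0.000474).

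Among genes with a mean of at least 5 CPM, the members whose log2 CPM followed KPNA2 most closely over the 8 libraries were NUP98 (Pearson r = 0.956), KPNB1 (0.937) and NUP85 (0.845). Of the other genes they were TPX2 (0.991), ZNF473 (0.990) and PRC1 (0.990). All of these were lowest in postconfluent Z1flag replicate 1, as KPNA2 was. They are a description of 8 libraries that share their scaling.

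**Figure D3:**
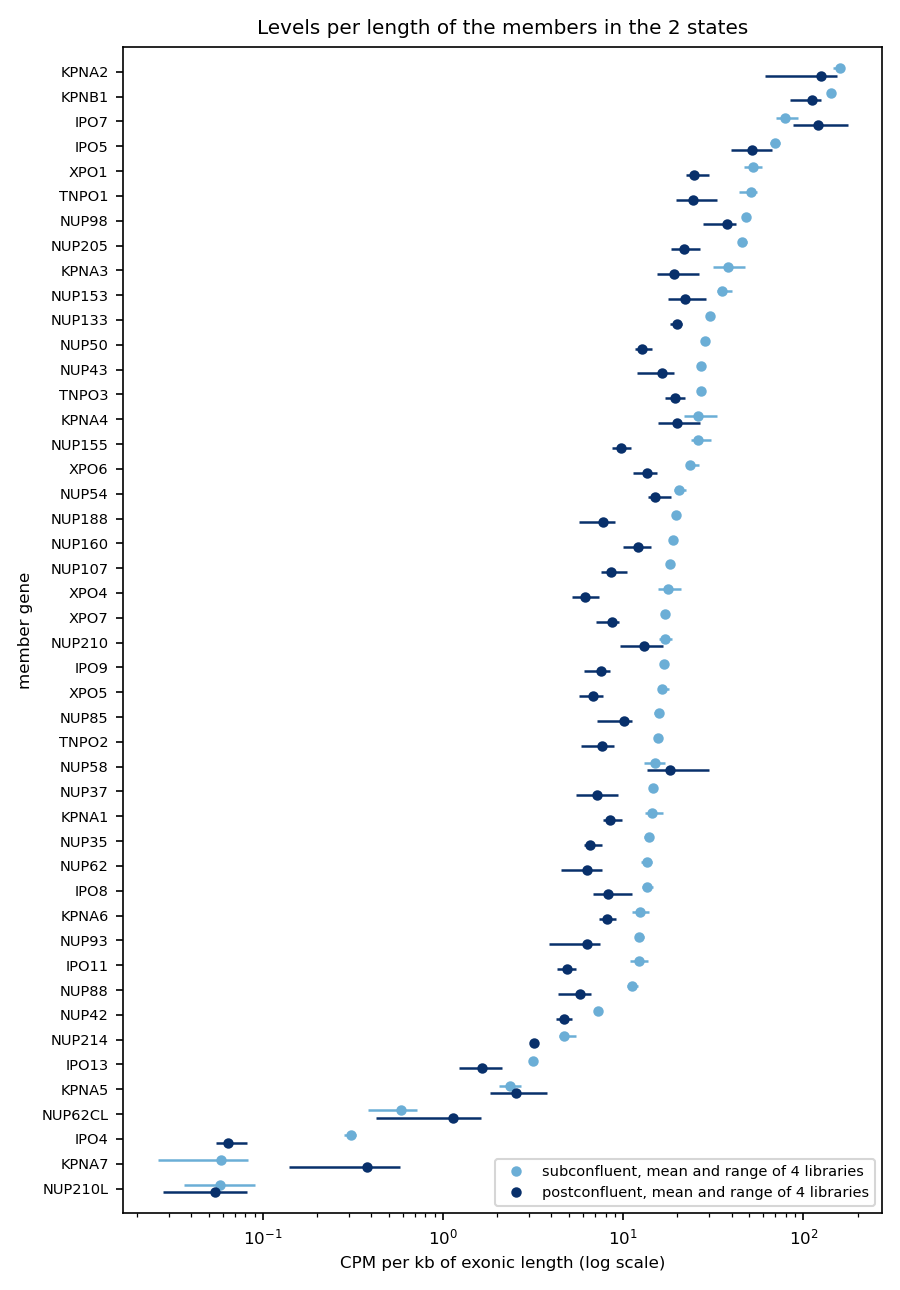
CPM per kilobase of exonic length (log axis) for each member in subconfluent and postconfluent libraries, as the mean (point) and range (line) of 4 libraries. KPNA2, KPNB1 and IPO7 lead in both states, and the ranges of most members in the middle of the order do not overlap between states.

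Levels between genes were compared as CPM per kilobase of exonic length. In subconfluent cells KPNA2 was highest (159.6 ± 9.02, SD, n = 4), followed by KPNB1 (142.4 ± 3.38), IPO7 (79.4 ± 9.79), IPO5 (69.4 ± 3.74), XPO1 (52.6 ± 4.94), TNPO1 (51.2 ± 5.06) and NUP98 (48.0 ± 1.26). IPO7 lay above IPO5 in each of the 4 subconfluent libraries, although their SD ranges overlapped. The SD ranges of XPO1, TNPO1 and NUP98 overlapped as well. After confluence KPNA2 (124.7 ± 43.0), IPO7 (120.7 ± 38.3) and KPNB1 (111.7 ± 18.7) were not separable, and IPO5 followed at 52.0 ± 11.8. The lowest levels in subconfluent cells were those of NUP210L (0.0581), KPNA7 (0.0587), IPO4 (0.307, with the overlap given above) and NUP62CL (0.587).

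Within the importin beta family, IPO7 took 14.2 ± 0.908% of the summed CPM per kilobase in subconfluent and 28.5 ± 4.41% in postconfluent libraries. In single libraries its share was 15.5%, 14.1%, 13.5% and 13.6% before, and 29.6%, 23.2%, 33.7% and 27.4% after confluence, with no overlap and in both lines. KPNB1 kept a similar mean share (25.5 ± 0.969% and 26.9 ± 3.63%). XPO1 had 9.41 ± 0.357% and then 5.94 ± 0.345%, TNPO1 9.16 ± 0.556% and then 5.82 ± 0.590%, and XPO4 3.17 ± 0.221% and then 1.49 ± 0.211%. Among the importin alpha genes KPNA2 held 63.2 ± 3.10% and 66.5 ± 8.86%, with 54.1% in postconfluent Z1flag replicate 1. These shares were not tested, and a share can rise because others fall.

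**Figure D4:**
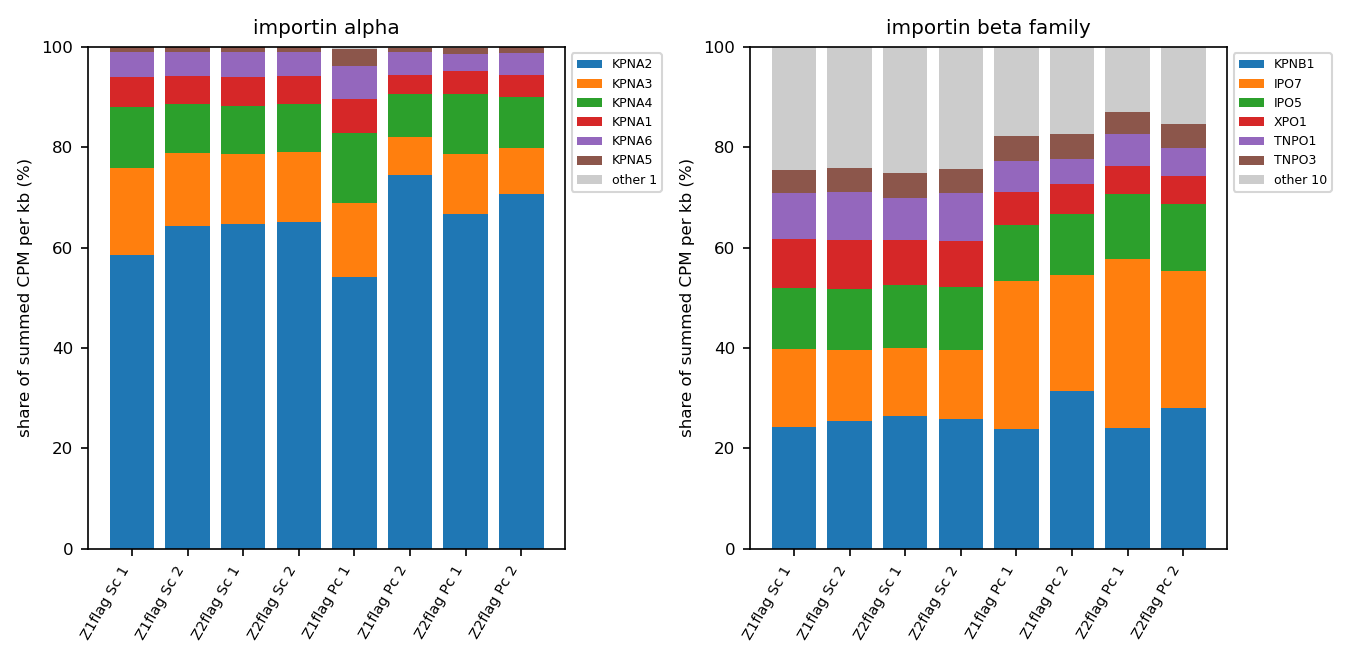
Share of the summed CPM per kilobase (in percent) held by each importin alpha gene (left) and each importin beta family gene (right) in each library, with the less abundant genes pooled. The IPO7 segment is wider in all 4 postconfluent libraries than in any subconfluent one, while KPNA2 holds more than 54% of the importin alpha sum in every library.

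Counted without a model, the 4 postconfluent libraries all lay below the 4 subconfluent ones for 36 of 46 members and all above for 1, KPNA7. Among all genes tested the shares were 26.1% and 25.1%. KPNA7 was among the genes tested through its postconfluent libraries alone, and IPO4, one of the 36, through its subconfluent libraries alone. The 9 members whose states overlapped were NUP58, NUP210, NUP210L, NUP62CL, KPNA2, KPNA4, KPNA5, IPO5 and IPO7.

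Within Z1flag cells 36 members were lower and 1, KPNA7 (tested through postconfluent libraries alone, as above), was higher, against 19.1% and 21.3% of all genes. Within Z2flag cells 28 were lower and 2, KPNA7 and IPO7, were higher, against 19.3% and 18.3%. Both counts of lower members hold IPO4, which was tested through subconfluent libraries alone. The higher members in Z2flag cells were not the same under each tool: KPNA7 lost its call in 8 settings, DESeq2 and limma voom among them (adjusted p up to 0.531), and NUP58 passed with a higher level in 7, DESeq2 and upper-quartile scaling among them (adjusted p up to 0.0419). The median log2 fold change of the members was -0.89 in Z1flag and -0.61 in Z2flag cells, and that of all genes tested 0.04 and -0.05. Lower in both lines were 28 members, among them all 5 inner ring genes, all 3 filament genes and all 6 of the exporter and bidirectional group. Some of these calls depend on the setting. The filament genes NUP214 and NUP42 and the adaptor KPNA6 each lost the Z2flag call in 12 settings, RLE scaling, DESeq2 and no filter among them. NUP160 lost it in 10 settings and NUP133 in 9. IPO8 lost the Z1flag call in 10 settings and the Z2flag call in 6, and IPO13 lost the Z1flag call in 9. Others of the 28 lost a call in fewer settings or in none. A further 8 were lower in Z1flag cells and did not pass in Z2flag cells (NUP85, NUP43, NUP54, NUP153, KPNA3, KPNA4, IPO5 and TNPO3), and 8 passed in neither. These counts depend on single libraries: leaving out subconfluent Z1flag replicate 1 or 2 gave 20 or 23 lower members in Z1flag cells, and leaving out any of the 4 Z2flag libraries gave 13 to 18 in Z2flag cells. The share of all genes called lower fell in the same fits, to 9.86% and 10.3% in Z1flag and to between 8.13% and 10.02% in Z2flag cells.

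**Figure D5:**
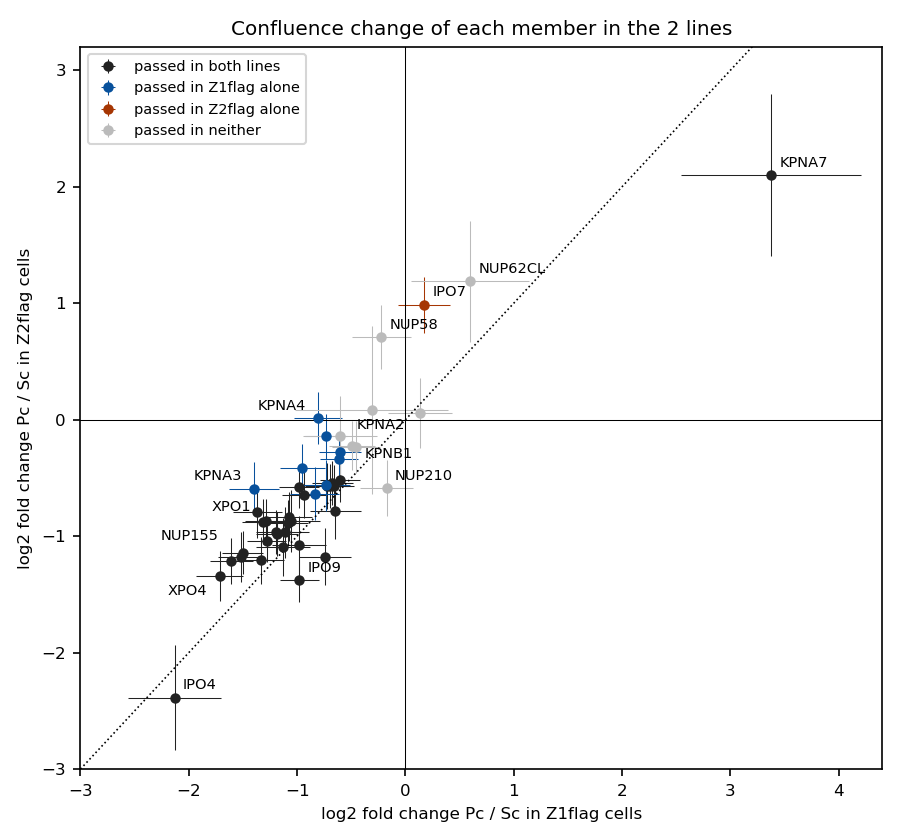
Log2 fold change after confluence in Z1flag (x) and Z2flag (y) cells for each member, with standard errors, coloured by the lines in which it passed. The dotted line marks equal change, and 38 of the 46 points lie above it.

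No member passed the test of a difference between the lines in its confluence change, and the same test called 0.0% of all genes. At an unadjusted p under 0.05 there were 4 members and 902 of all genes, and DESeq2 and limma voom also called no member. The smallest p belonged to KPNA4 (Z2flag change minus Z1flag change 0.82 on the log2 scale, SE 0.31, unadjusted p = 0.0258, edgeR adjusted p = 0.799). KPNA4 stood at 312.3 and 234.6 CPM in subconfluent and 147.5 and 165.3 CPM in postconfluent Z1flag cells. In Z2flag cells it stood at 204.8 and 227.8 CPM, then at 250.7 and 186.2 CPM, with overlapping states. KPNA3 came next (difference 0.81, SE 0.32, unadjusted p = 0.0316, edgeR adjusted p = 0.799). It stood at 213.3 and 166.2, then 74.7 and 69.4 CPM in Z1flag cells, and at 140.3 and 159.6, then 118.4 and 80.5 CPM in Z2flag cells. The Z1flag change was the more negative for 38 of 46 members, among them IPO7 and NUP62CL with positive values in both lines, and for 8145 of all 18240 genes. KPNA2 passed this test without postconfluent Z1flag replicate 2, so that its low library alone stood for its group. Genes outside the members passed in that fit as well.

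No member passed the test of a difference in level between the lines over both states either. It called 0.0% of all genes, with no member and 465 of all genes at an unadjusted p under 0.05. DESeq2 called 2 of all genes and no member. The members' log2 differences, Z2flag minus Z1flag, ran from -0.29 to 0.50. The smallest p values were those of IPO5 (0.14) and NUP58 (0.191). KPNA2 passed without postconfluent Z1flag replicate 2, as did genes outside the members in that fit.

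Among the postconfluent libraries, Z1flag replicate 1 stood lowest for these genes. Relative to the subconfluent mean, the median member lay at -1.03 on the log2 scale in that library and at -0.78, -0.70 and -0.76 in postconfluent Z1flag replicate 2 and Z2flag replicates 1 and 2. The 10 proliferation markers, 7 of which were lower after confluence and none higher, had medians of -1.80, -0.61, -0.87 and -0.75 in the same libraries. Without that library, the members' median log2 fold change over both lines was -0.69, against 0.02 for all genes tested. With replicate 1 of both Z1flag states removed, which left 1 library in each Z1flag group, it was -0.68 over both lines and -0.73 in Z1flag cells. The all-gene medians of that fit were 0.01 and 0.02. The part of proliferation in the members' change was not tested.

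The partners of these genes outside the symbol pattern were taken from 4 lists with 36 genes, all of them tested. Over both lines 26 were lower and 1 higher, against 27.5% and 27.8% of all genes. Among the other nucleoporins 9 of 11 were lower, led by SEH1L of the Y complex (209.4 ± 27.1 to 70.3 ± 14.1 CPM, log2 fold change -1.58, SE 0.16, adjusted p = 3.62e-05), the membrane nucleoporin NDC1 (log2 fold change -1.13) and the filament protein RANBP2 (-0.99). SEC13, shared with COPII vesicle coats, had a value of 0.11 (adjusted p = 0.561). Of the 6 Ran cycle genes 5 were lower, among them RAN itself (721.3 ± 23.1 to 348.5 ± 100.9 CPM, log2 fold change -1.06), its cofactor RANBP1 (-1.64) and RANBP3 (-0.78). RANGAP1, the Ran GTPase activator, had a value of -0.32 (adjusted p = 0.234).

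CSE1L, the receptor that returns importin alpha to the cytoplasm, fell from 776.7 ± 65.7 to 249.5 ± 44.8 CPM (log2 fold change -1.65, SE 0.14). It was among 5 of 7 other receptors and adaptors that were lower, with the mRNA export cofactor NXT2 (-1.30) and the tRNA exporter XPOT (-0.70), while the mRNA export receptor NXF1 had a value of 0.20 (adjusted p = 0.356). Of 12 mRNA export partners 7 were lower and 1 higher. The mRNA export adaptor ALYREF fell from 170.2 ± 7.80 to 51.2 ± 16.8 CPM (log2 fold change -1.74, SE 0.24), THOC6 of the THO complex by 0.89 and PCID2 by 0.53 on the log2 scale. DDX39B, an RNA helicase of mRNA export, was higher (log2 fold change 0.62, SE 0.19, adjusted p = 0.0179), with 29.7% of its exonic length shared with a readthrough gene. In the separate lines, 18 of the 36 genes were lower in Z1flag and 16 in Z2flag cells, against 19.1% and 19.3% of all genes, and none was higher in either at the adjusted threshold.

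Since most members moved together, their promoters were read for letter matches to 4 motifs. RefSeq windows (GRCh38.p14) from 250 bases before to 50 bases after a gene's start were matched for 40 of the 46 members, in 52 windows. A core of the motif of E2F cell cycle factors (TTCCCGC or TTGGCGC, either strand) was in 26.9% of the member windows, against 13.3% of the windows of tested protein-coding genes and 9.23% of all windows. For the CCAAT box (CCAAT) the shares were 50%, 34.8% and 34.6%. For the ETS core (CCGGAAG) they were 23.1%, 16.04% and 10.3%, and for the NRF1 core (GCATGCG), whose complement overlaps itself, 9.62%, 5.42% and 3.91%. The E2F core was in 20.9% of the 43 windows of members that were lower and in 55.6% of the 9 windows of the others. A match is a description of the letters and not a binding site.

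Promoter windows of 4 members are shown in the direction of transcription, with matches in capitals, because they pair members that fell (NUP107 and NUP155) with ones that rose or did not pass (IPO7 and KPNA2). The NUP107 window, chr12:68686728-68687027 on the plus strand, holds all 4 motifs. The NUP155 window, chr5:37371057-37371356 on the minus strand, holds the E2F core alone. The IPO7 window, chr11:9384402-9384701 on the plus strand, also holds the E2F core alone. The KPNA2 window, chr17:68035485-68035784 on the plus strand, holds the CCAAT box alone.
NUP107: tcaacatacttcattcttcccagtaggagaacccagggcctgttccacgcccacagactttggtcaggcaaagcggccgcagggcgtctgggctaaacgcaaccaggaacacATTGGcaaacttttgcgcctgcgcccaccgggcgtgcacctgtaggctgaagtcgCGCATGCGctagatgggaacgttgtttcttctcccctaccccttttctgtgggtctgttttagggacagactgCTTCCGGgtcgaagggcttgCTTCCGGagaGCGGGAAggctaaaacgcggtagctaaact
NUP155: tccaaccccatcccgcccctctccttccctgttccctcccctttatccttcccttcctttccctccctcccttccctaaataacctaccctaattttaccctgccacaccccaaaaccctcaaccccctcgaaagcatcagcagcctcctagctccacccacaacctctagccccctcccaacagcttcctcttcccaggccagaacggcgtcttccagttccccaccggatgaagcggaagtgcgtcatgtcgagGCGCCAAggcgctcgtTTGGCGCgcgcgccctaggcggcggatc
IPO7: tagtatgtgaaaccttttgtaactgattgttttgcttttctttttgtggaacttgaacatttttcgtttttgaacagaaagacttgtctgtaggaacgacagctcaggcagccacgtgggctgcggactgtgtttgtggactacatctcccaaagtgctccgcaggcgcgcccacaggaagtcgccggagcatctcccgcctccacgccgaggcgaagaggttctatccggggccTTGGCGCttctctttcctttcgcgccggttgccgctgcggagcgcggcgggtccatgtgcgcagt
KPNA2: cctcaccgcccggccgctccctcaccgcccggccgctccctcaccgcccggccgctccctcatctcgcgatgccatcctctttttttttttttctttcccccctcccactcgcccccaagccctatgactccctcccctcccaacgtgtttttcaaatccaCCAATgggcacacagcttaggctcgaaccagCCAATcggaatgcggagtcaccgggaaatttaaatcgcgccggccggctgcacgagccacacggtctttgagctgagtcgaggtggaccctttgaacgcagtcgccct

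Among these windows the E2F core is in those of both members that fell and in that of IPO7, which rose over both lines.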

How the data were processed

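Strand-specific, rRNA-depleted RNA-seq libraries were sequenced paired-end, per the labels' protocols. The values are raw counts per gene that the authors deposited, made against hg38 with HTSeq, SAMtools and STAR 2.5.2b, per the submitters' processing notes. Neither the annotation nor the strand setting of the counting was given in the sources used here, so overlapping genes cannot be separated with certainty. HTSeq classes of unassigned reads were left out of library sizes. Positions and exonic lengths are from GENCODE v29 (GRCh38).

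Groups come from the labels. Whether replicates are separate cultures is not stated, and p-values then measure only the spread between these samples, which may be technical. The test was that of edgeR 4.0.16 in R 4.3.3 (TMM, filterByExpr with minimum count 10 and total 15, robust quasi-likelihood F test). A single fit held 4 group means and left 4 residual degrees of freedom. Adjustment was by the Benjamini-Hochberg method across 18240 genes at 0.05. The SE is the log2 fold change divided by the square root of F. For log2 CPM the prior count was 2. The scripts were tested on simulated data.

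The members, the lists and the rule for naming genes were chosen with earlier results of these data known. Full statistics are given for up to 3 members of each role that passed with the smallest adjusted p and averaged at least 5 CPM, the first of the other direction, KPNA2, KPNB1 and XPO1, and the 2 members with the smallest p between lines. Others are named by role. Of each partner list up to 3 genes and the first of the other direction are named, and RANGAP1 was added after its value was seen. Alternatives were DESeq2 1.42.0, limma 3.58.1 voom, upper-quartile and RLE scaling, other filters, a replicate block, fits of fewer libraries and leaving out each library.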

Additional observations from a re-analysis of the deposited data

How the results depend on the processing

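None of the members' values named above reversed direction while called, under any alternative run. Over both lines 32 to 40 members were lower under the other scalings, tools and filters and the replicate block, and 33 to 39 when 1 library was left out. Within Z1flag cells the 36 lower members became 23 when only the libraries compared were fitted, 22 with Z1flag replicate 1 of both states removed, and 20 to 37 when 1 library was left out. Within Z2flag cells the 28 lower members became 13 to 30 when 1 library was left out. The 1 higher member in Z1flag cells became 0 when genes had to reach 5 CPM in 2 libraries, which does not test KPNA7, 0 with Z1flag replicate 1 of both states removed, and 0 to 2 with 1 library left out. The 2 higher members in Z2flag cells became 1 with limma voom (with DESeq2 there were 2, NUP58 in place of KPNA7) and 0 to 4 with 1 library left out, and the 2 over both lines became 1 with that filter and 1 to 3. Differences between lines, in change or in level, gave 0 to 1 members with 1 library left out. Beyond fewer genes or samples tested, the cause was not tested.

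With upper-quartile scaling the all-gene median log2 fold change over both lines went from -0.01 to 0.18 and left 32 members lower and 3 higher over both lines, 25 and 1 in Z1flag and 19 and 3 in Z2flag cells. All genes then split into 20.9% lower and 34.2% higher. The members' median lay 0.75 below that of all genes with either scaling. Within Z2flag cells the lower members also numbered fewer with RLE scaling (22) and DESeq2 (23), against 17.6% and 17.5% of all genes. With the filter of 5 CPM in 2 libraries they were 21 of the 42 tested, against 22.1% of all genes.

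The replicate numbers are the Exp numbers of the sample titles. Over the genes tested, same-numbered libraries showed little shared deviation (r from -0.18 to 0.178 over pairs of groups), so the numbers were not taken as pairs. Replicate 1 of subconfluent and postconfluent Z1flag cells did share the highest parts of reads over no annotated feature (32.0% and 31.4%). With a replicate block, 36 members were lower and 1 higher in Z1flag, 26 and 2 in Z2flag cells, 35 and 2 over both lines, and 0 differed between lines.

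Low counts limit NUP210L, KPNA7, NUP62CL and IPO4, which have means under 5 CPM. IPO4 also shares 69.3% of its exonic length with another gene on the same strand. The effect of this overlap on its count was not tested.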
